A study of Mus musculus with 17 samples.

Results

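Polymerase occupancy was examined at 8 genes of the actin cytoskeleton in mouse bone marrow-derived macrophages. They are Actb and Actg1 (the cytoplasmic actins), Tmsb4x, Tmsb10 and Pfn1 (monomer binding proteins), Cfl1 and Coro1a (filament turnover) and Lcp1 (filament bundling). The genes were chosen by name, with earlier results of these data known, and every summit inside the annotated gene or less than 1 kb outside it was assigned to it, as for all 21887 protein-coding genes. RNA polymerase II was immunoprecipitated with the AbFlex RNA Pol II antibody from wild-type (WT) cells and from cells labelled N4bp1 KO, and the recovered DNA was sequenced. Each genotype was left untreated or received the TLR7 ligand R837 (imiquimod) for 2, 4 or 6 h, which gave 8 groups of 2 libraries. The labels do not give the KO allele, the age of the animals, the dose of R837 or whether replicates were separate cultures, so the spread between replicates may be technical.

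Actin monomers assemble into polar filaments that push the membrane forward during phagocytosis and migration, both of which macrophages perform continuously. Thymosins hold monomers in reserve, profilin delivers them to growing ends, cofilin severs old filaments, and plastin and the Arp2/3 complex organise filaments into bundles and branches. Transcription of many of these genes is controlled by serum response factor (SRF), which binds the CArG box and whose MRTF coactivators are held back by actin monomers.

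Each library was deposited as a list of peak summits with a score on the −log10 scale of either a p-value or a q-value. The 8394 highest-scoring summits of each list, as many as the shortest list held, were ranked by score. The rank score used here is log2 of the ratio of 8395 to the best rank in the gene. It runs from 0 (no summit) to 13.04 (the top summit of the library), and 1 unit corresponds to a doubling of position in the list, not of polymerase. In bulk samples, fewer cells with polymerase at a gene and less polymerase per cell cannot be told apart. Treated libraries had a summit in 2693 to 5885 genes and untreated libraries in 6430 to 6689, and the median change over the 8475 genes tested was −0.33. Replicate 2 of KO at 6 h stood apart, with a highest score of 563.5 and at most 0.0874% of its score values found in any other list, against at least 39.9% for each of the other libraries. Some lists shared most of their score values across groups, up to 96.7%. Codes in the peak names form one series for the untreated and 2 h libraries, another for 4 h and another for 6 h, so batch and time cannot be told apart for 4 h and 6 h against untreated. Read depth is unknown. Of 10 macrophage markers, 9 held a summit in each untreated library and 7 to 9 in each treated library, with summed rank scores of 39.1 to 42.7 and 32.5 to 55.03. Itgam was at 0 in the untreated and Mertk in the treated libraries. All 6 B cell, 4 erythroid and 6 fibroblast markers were at 0 in every library. Of 9 T and NK cell markers at most 1 held a summit, of 7 neutrophil markers none untreated and at most 1 treated, and of 5 dendritic cell markers 1 untreated (Xcr1) and 1 to 2 treated.

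Promoters of 3 genes are shown first: Lcp1 and Cfl1, which rose after R837, and Actg1, whose best summit moved between the start and the gene end. They run 5′ to 3′ on the coding strand, end at the base before the annotated gene, and come from RefSeq on GRCm38.p6. Capitals mark matches, on either strand, to 3 motifs: the CArG box (the SRF motif), GGGCGG (the GC box) and CCAAT.

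Actg1, chr11:120348496-120348745, minus strand: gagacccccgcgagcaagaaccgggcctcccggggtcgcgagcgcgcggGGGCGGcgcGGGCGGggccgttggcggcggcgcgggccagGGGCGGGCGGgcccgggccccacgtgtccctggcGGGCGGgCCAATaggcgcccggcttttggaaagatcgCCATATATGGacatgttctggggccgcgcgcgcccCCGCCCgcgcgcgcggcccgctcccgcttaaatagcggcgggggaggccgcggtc

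Cfl1, chr19:5490205-5490454, plus strand: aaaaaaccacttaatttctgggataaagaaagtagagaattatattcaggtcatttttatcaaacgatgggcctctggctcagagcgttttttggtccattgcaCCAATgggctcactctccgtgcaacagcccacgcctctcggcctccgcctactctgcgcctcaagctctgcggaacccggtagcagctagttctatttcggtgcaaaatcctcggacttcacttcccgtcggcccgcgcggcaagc

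Lcp1, chr14:75130873-75131104, plus strand: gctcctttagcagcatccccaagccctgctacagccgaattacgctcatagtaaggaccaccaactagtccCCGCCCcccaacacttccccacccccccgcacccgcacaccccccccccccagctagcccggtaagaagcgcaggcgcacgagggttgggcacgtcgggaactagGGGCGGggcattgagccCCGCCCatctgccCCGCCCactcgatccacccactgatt

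The Actg1 promoter held 1 CArG box, 90 bases before the start, 6 overlapping or separate GGGCGG matches and 1 CCAAT. A CArG box was found in 1.47% of 32851 annotated promoters of 250 bases, GGGCGG in 32.7% and CCAAT in 33.8%. Lcp1 held 4 GGGCGG matches and Cfl1 1 CCAAT. Among the 11 annotated starts of the 7 genes with an entry, no other CArG box was found. None of them matched TATAAA (12.4% of all promoters) or the NF-kB motif (5.93%). These matches describe letters in this window and are not evidence of binding.

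The 8 genes spanned nearly the whole range of rank scores. Averaged over all 16 libraries, the order was Actb at 10.35 ± 1.36 (SD, n = 16, as for the values that follow), Tmsb4x at 7.53 ± 1.01, Actg1 at 6.46 ± 0.67, Cfl1 at 5.41 ± 1.08, Lcp1 at 5.03 ± 1.52, Pfn1 at 4.92 ± 1.54, Coro1a at 1.90 ± 1.08 and Tmsb10 at 1.62 ± 1.80. Actb and Tmsb4x differed by more than either SD, as did Pfn1 and Coro1a. Each of the other neighbouring pairs in this order differed by less than the larger of their SDs, except Tmsb4x and Actg1, which differed by slightly more than theirs. This order is a description. The rank score takes the best of all summits in a gene and is not corrected for length, and Lcp1 spans 99.7 kb where the others span 1402 to 6387 bp.

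**Figure D1:**
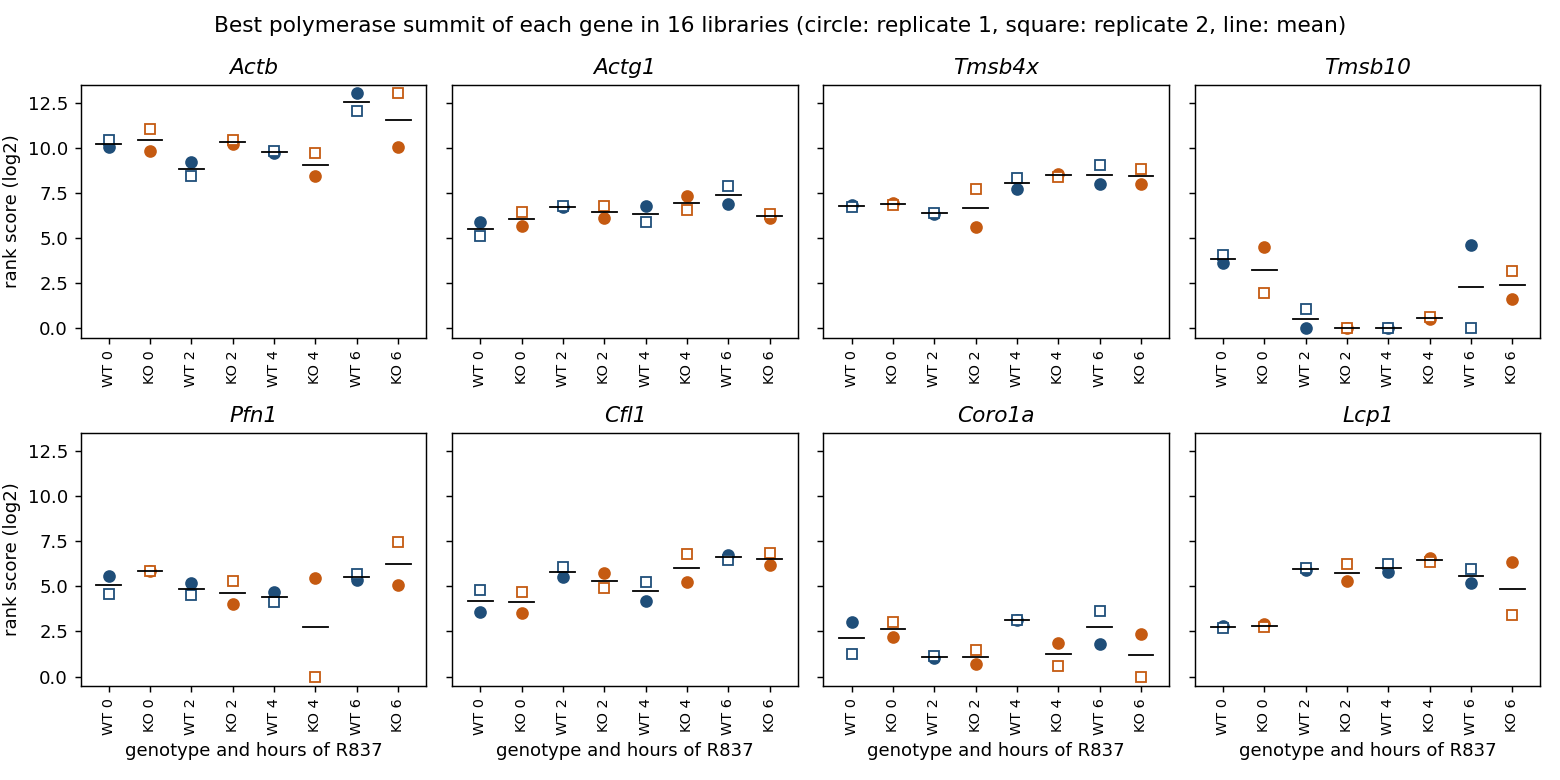
Rank score (log2, y axis) of the best summit of each of the 8 genes in each library, by genotype and hours of R837 (x axis). Circles are replicate 1, squares replicate 2 and lines the mean of 2. Actb was at 8.45 or higher in all 16 libraries, Lcp1 lay higher in all 12 treated libraries than in the 4 untreated ones, and Tmsb10 was at 0 in 6 treated libraries.

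With R837 over all times and both genotypes, 3 of the 8 genes passed the limma test. Lcp1 and Cfl1 rose and Tmsb10 fell, while Actb, Actg1, Tmsb4x, Pfn1 and Coro1a did not pass. Of all genes tested, 5.77% rose and 29.4% fell. The comparison pools 12 treated against 4 untreated libraries with 1 mean per group. Adjusted p-values are from limma with Benjamini-Hochberg adjustment over all 8475 genes.

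Actb (gene ID 11461, chr5:142903115-142907976), which encodes beta-actin, was among the top 24 summits in every library. Its ranks were 8 and 6 in untreated WT and 9 and 4 in untreated KO. At 2 h they were 14 and 24 in WT and 7 and 6 in KO, at 4 h 10 and 9 in WT and 24 and 10 in KO, and at 6 h 1 and 2 in WT and 8 and 1 in KO. Untreated and treated ranks overlapped, and Actb held the top summit of the library in replicate 1 of WT and replicate 2 of KO at 6 h. Its change with R837 was 0.01 ± 0.51 (SE, 12 against 4 libraries, adjusted p = 0.994). At 6 h the change was 2.29 ± 0.88 in WT (adjusted p = 0.0965) and 1.09 ± 0.88 in KO (adjusted p = 0.439). Leaving out KO 6 h replicate 1 brought both past the threshold (2.29, adjusted p = 0.0248, and 2.59, adjusted p = 0.0379), and leaving out KO 6 h replicate 2 did so for WT (adjusted p = 0.0254). Wherever a refit leaves a group with 1 library, as here for KO at 6 h, the spread comes from the other groups and the lone library is assumed to vary as they do. With no extension of the gene, the pooled change of Actb was −4.04 ± 2.25 (adjusted p = 0.188). Copies of the actin and thymosin genes elsewhere in the genome can share reads with Actb, Actg1, Tmsb4x and Tmsb10, so the placing of their reads is uncertain. The strand and start of Actb were not used, so its summits are placed from its lower coordinate. In the 4 untreated libraries the best summit lay inside the gene, 3525 to 3568 bp from that end. After R837 it lay inside in 7 of 12 libraries (3385 to 3480 bp) and 361 to 818 bp below the gene in the other 5, which were WT 2 h replicate 2, both WT 4 h libraries, KO 4 h replicate 1 and WT 6 h replicate 2.

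Actg1 (gene ID 11465, chr11:120345687-120348495, minus strand), which encodes gamma-actin, did not pass the test of rank, and its best summit lay elsewhere after R837. Its ranks were 143 and 241 in untreated WT and 161 and 97 in untreated KO. At 2 h they were 78 and 77 in WT and 121 and 75 in KO, at 4 h 77 and 142 in WT and 52 and 89 in KO, and at 6 h 71 and 35 in WT and 121 and 103 in KO. The treated libraries overlapped the untreated ones between ranks 97 and 142. The change was 0.90 ± 0.36 (SE, 12 against 4, adjusted p = 0.0678), which did not pass. At 6 h in WT the change was 1.90 ± 0.63 (adjusted p = 0.0547). It passed there with the 3 kb extension (adjusted p = 0.0461), with 1 rank per gene (0.0485), with no filter (0.0497) and without KO untreated replicate 1 (0.0489) or 2 (0.0485). In all 4 untreated libraries the best summit lay 120 to 172 bp downstream of the start. After R837 it lay 305 to 510 bp past the gene end in 9 of 12 libraries, near the start (67 to 130 bp) in 2, and 553 bp downstream of it in the remaining one.

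The place of polymerase on Actg1 was then measured separately within 1 kb of the start and of the gene end, a measure added after the data were seen and fitted over all genes with such windows. In the end window the best ranks were 892, 722, 699 and 515 in the untreated libraries. After R837 they were 101 and 77 (WT) and 121 and 75 (KO) at 2 h, 77 and 146 (WT) and 52 and 89 (KO) at 4 h, and 71 and 35 (WT) and 121 and 682 (KO) at 6 h. All treated libraries except KO 6 h replicate 2 ranked above every untreated one. How many of all genes separate like this was not counted, so the separation is a description. The end window rose by 2.83 ± 0.56 (SE, 12 against 4, limma adjusted p = 0.00546), where 5.35% of 1364 genes rose and 9.31% fell. The call was kept when any 1 library was left out. With windows of 500 bp the change was 2.17 ± 0.99 (adjusted p = 0.253), which did not pass, where 1.28% of 862 genes rose and 5.92% fell. In the start window the change was −0.34 ± 0.87 (adjusted p = 0.791), and within 500 bp it was −1.84 ± 0.34 (adjusted p = 0.00177), where 2.37% of 5777 genes rose and 26.4% fell. Within 1 kb of the start, Actg1 had a summit in 4 of 4 untreated and 11 of 12 treated libraries, with mean rank scores of 5.78 and 5.45. A summit is the highest point of a peak, so a summit missing from a start window does not show that polymerase left the start.

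**Figure D2:**
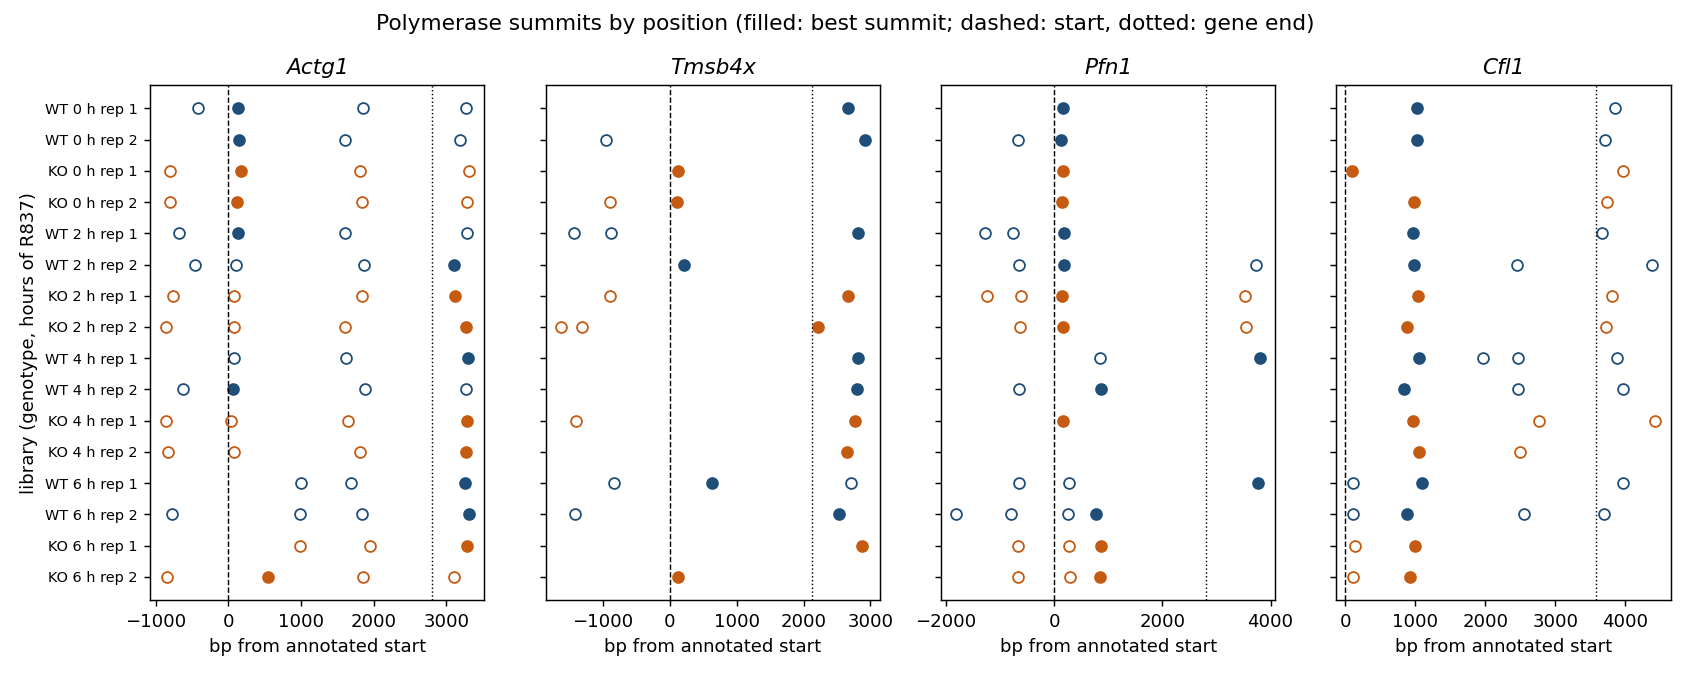
Position of every summit of Actg1, Tmsb4x, Pfn1 and Cfl1 in the shortened lists, as bp downstream of an annotated start (x axis), for each library (y axis, genotype and hours of R837). Filled points are the best summit, dashed lines the start and dotted lines the gene end, and the annotated Tmsb4x and Pfn1 genes reach upstream of the start drawn. The best Actg1 summit lay near the start in all 4 untreated libraries and past the gene end in 9 of 12 treated ones.

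Tmsb4x (gene ID 19241, chrX:167207093-167213479, minus strand) encodes thymosin beta-4, the main monomer-holding peptide of blood cells. Its ranks were 73 and 79 in untreated WT and 67 and 72 in untreated KO. After 2 h the ranks were 103 and 99 in WT and 168 and 39 in KO, at 4 h 39 and 26 in WT and 22 and 25 in KO, and at 6 h 32 and 16 in WT and 33 and 18 in KO. All 8 libraries at 4 h and 6 h ranked above every untreated library, while 3 of the 4 libraries at 2 h ranked below them. How many of all genes separate by time like this was not counted. The pooled change was 0.91 ± 0.41 (SE, 12 against 4, adjusted p = 0.0981), which did not pass. It passed without KO 2 h replicate 1 (1.08, adjusted p = 0.0295). The changes at 6 h were 1.75 ± 0.70 in WT (adjusted p = 0.112) and 1.51 ± 0.70 in KO (adjusted p = 0.165). The best summit lay past the gene end, by 96 to 746 bp, in 9 of 12 treated libraries. In untreated cells it did so in both WT libraries (534 and 788 bp) but lay 102 and 129 bp downstream of the start in both KO libraries. This difference was not tested, and the place also differed between replicates in WT at 2 h (2809 and 214 bp downstream of the start) and in both 6 h groups. The end window changed by 3.04 ± 1.34 (adjusted p = 0.145).

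Tmsb10 (gene ID 19240, chr6:72957347-72958748, minus strand), which encodes thymosin beta-10, fell. Its ranks were 690 and 497 in untreated WT and 364 and 2116 in untreated KO. After R837, 6 of 12 libraries had no summit in the shortened list: WT 2 h replicate 1, both KO 2 h, both WT 4 h and WT 6 h replicate 2. The others ranked 3913 (WT 2 h), 5758 and 5468 (KO 4 h), 334 (WT 6 h), and 2732 and 905 (KO 6 h). Both 6 h groups overlapped the untreated ranks, while all 8 libraries at 2 h and 4 h ranked below them. The share of all genes separated in this way was not counted, so the separation is a description. The change was −2.57 ± 0.69 (SE, 12 against 4, adjusted p = 0.0114). It was lost without WT untreated replicate 2 (−2.45, adjusted p = 0.0571) or KO untreated replicate 1 (−1.94, adjusted p = 0.0893), and with 1 rank per gene (adjusted p = 0.0861). Without KO 6 h replicate 2 the change was −2.70 (adjusted p = 0.0135). By time, the changes at 2 h were −3.29 ± 1.19 in WT (adjusted p = 0.0806) and −3.26 ± 1.19 in KO (0.0964). In KO at 4 h the change was −2.68 ± 1.19 (adjusted p = 0.173). At 6 h it was −1.52 ± 1.19 in WT (0.423) and −0.84 ± 1.19 in KO (0.687). With the untreated and 2 h libraries only, WT at 2 h passed (adjusted p = 0.0439) and KO did not. In the main fit only WT at 4 h passed (−3.84 ± 1.19, adjusted p = 0.0478), where 10.9% of all genes fell. That call was lost without any one of 13 libraries, all but KO untreated replicate 1 and both WT 6 h replicates (adjusted p from 0.0501 to 0.185). Every Tmsb10 best summit lay within 80 bp of one of its 3 annotated starts, in untreated and treated libraries alike. The deposited list of WT 4 h replicate 1 held a Tmsb10 summit at rank 11423. In the other 5 libraries without one, the nearest deposited summit was 58551 to 340650 bp away.

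Pfn1 (gene ID 18643, chr11:70651844-70656799, minus strand) encodes profilin 1, and its region overlaps those of Eno3 and Rnf167. Its ranks were 177 and 353 in untreated WT and 148 and 143 in untreated KO. R837 for 2 h gave ranks of 231 and 361 in WT and 524 and 213 in KO, at 4 h 321 and 477 in WT and 192 and none in KO, and at 6 h 209 and 165 in WT and 251 and 48 in KO. The groups overlapped, and the library without a summit had one at rank 515, 4353 bp from the gene. The change was −0.72 ± 0.76 (SE, 12 against 4, adjusted p = 0.482). Its sign depended on the way summits were assigned: the best summit also lay in the region of Eno3 in 13 libraries and of Rnf167 in 2. When each summit counted for its nearest gene only, the change was 1.30 ± 0.44 (adjusted p = 0.0392), and the number of summits rose by 0.59 ± 0.17 on the log2 scale (adjusted p = 0.0314). The best summit lay 129 to 161 bp downstream of the start in the 4 untreated libraries and 150 to 184 bp in 5 treated ones, the 4 libraries at 2 h and KO 4 h replicate 1. In 4 treated libraries at 4 h and 6 h it lay 767 to 872 bp downstream, and in 2 it lay 956 and 999 bp past the gene end. Within 1 kb of the start the change was −0.87 ± 0.81 (adjusted p = 0.432), which did not pass. Within 500 bp of the start Pfn1 fell by 2.70 (SE 0.74, adjusted p = 0.0163), where 26.4% of all genes fell.

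Cfl1 (gene ID 12631, chr19:5490455-5494031, plus strand), which encodes the severing factor cofilin 1, rose. Its ranks were 691 and 304 in untreated WT and 719 and 325 in untreated KO. At 2 h they were 181 and 127 in WT and 157 and 285 in KO, at 4 h 461 and 220 in WT and 221 and 75 in KO, and at 6 h 78 and 95 in WT and 116 and 72 in KO. Of the 12 treated libraries, 11 ranked above every untreated one, and WT 4 h replicate 1 lay among the untreated ones. How many of all genes separate to this extent was not counted, so the separation is a description. The change was 1.67 ± 0.42 (SE, 12 against 4, adjusted p = 0.00794). Leaving out any 1 library kept the call, with adjusted p of at most 0.0473. With the untreated and 2 h libraries only, which share a code series, the change was 1.39 ± 0.49 (adjusted p = 0.0667, where 5.09% of 7669 genes rose and 20.9% fell). The number of Cfl1 summits changed by 0.26 ± 0.10 (adjusted p = 0.0915). Without KO 6 h replicate 2 the rank score changed by 1.62 (adjusted p = 0.0123). By time, WT passed at 6 h (2.41 ± 0.73, adjusted p = 0.0379), as did KO (2.40 ± 0.73, adjusted p = 0.0397), where 3.1% and 5.12% of all genes rose. The WT call was lost without WT untreated replicate 1 (adjusted p = 0.187), WT 2 h replicate 1 (0.0512) or 2 (0.0509), or WT 6 h replicate 1 (0.133) or 2 (0.114). The KO call was lost without KO untreated replicate 1 (adjusted p = 0.200), WT 2 h replicate 1 (0.0537) or 2 (0.0536), or KO 6 h replicate 1 (0.0602) or 2 (0.173). Its best summit kept its place, 844 to 1103 bp downstream of the start in all 12 treated libraries and 979 to 1029 bp in 3 of 4 untreated ones, with KO untreated replicate 1 at 91 bp.

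Coro1a (gene ID 12721, chr7:126699774-126704816, minus strand) encodes coronin 1A, a filament-binding protein of white blood cells. Its ranks were 1050 and 3491 in untreated WT and 1812 and 1023 in untreated KO. After 2 h they were 4159 and 3775 in WT and 5172 and 3040 in KO, at 4 h 954 and 960 in WT and 2286 and 5611 in KO, and at 6 h 2362 and 688 in WT and 1650 and none in KO. The groups overlapped, and the library without a summit had one at rank 975, 3808 bp from the gene. The change was −0.64 ± 0.50 (SE, 12 against 4, adjusted p = 0.339). Within 1 kb of its starts Coro1a had a summit in 3 of 4 untreated and 5 of 12 treated libraries and fell by 1.16 (SE 0.36, limma adjusted p = 0.0266), where 28.1% of 6025 genes fell. That call was lost without WT untreated replicate 2 (adjusted p = 0.116) or KO untreated replicate 2 (0.107).

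Lcp1 (gene ID 18826, chr14:75131105-75230842, plus strand), which encodes L-plastin, the filament bundler of white blood cells, had the highest rise of the 8 genes. Its best summit ranked 1196 and 1309 in untreated WT and 1130 and 1253 in untreated KO. At 2 h the ranks were 141 and 129 in WT and 215 and 112 in KO, at 4 h 151 and 110 in WT and 90 and 102 in KO, and at 6 h 230 and 133 in WT and 105 and 783 in KO. All 12 treated libraries ranked above all 4 untreated ones, which held for 2.05% of genes tested, and the nearest was KO 6 h replicate 2. The change was 2.99 ± 0.45 (SE, 12 against 4, adjusted p = 2.66e-04). It passed under every alternative run and without any 1 library, for example 3.23 without KO 6 h replicate 2 (adjusted p = 2.53e-05) and 3.08 with the untreated and 2 h libraries only (adjusted p = 0.00175).

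By genotype and time, Lcp1 rose in WT by 3.21 ± 0.79 at 2 h (adjusted p = 0.0143), 3.28 ± 0.79 at 4 h (0.0143) and 2.84 ± 0.79 at 6 h (0.0259). In KO it rose by 2.94 ± 0.79 at 2 h (adjusted p = 0.0272) and 3.63 ± 0.79 at 4 h (0.00889), and the change of 2.05 ± 0.79 at 6 h did not pass (0.0977). The shares of all genes that rose were 3.53% in WT at both 2 h and 4 h and 3.1% at 6 h, and 2.64%, 3.78% and 5.12% in KO. With no extension of the gene, the WT calls at 4 h (2.46, adjusted p = 0.0706) and 6 h (2.32, adjusted p = 0.081) were lost. With only the compared groups in the fit, WT at 4 h (adjusted p = 0.0574) and 6 h (0.0831) and KO at 2 h (0.105) lost theirs. With 2 libraries a group, most of these calls rest on single libraries, although the changes in the refits named next lay between 2.44 and 3.54. The WT 2 h call was lost without WT untreated replicate 2 (adjusted p = 0.0605) or WT 2 h replicate 1 (0.0693) or 2 (0.0837). The WT 4 h call was lost without WT untreated replicate 2 (0.0600) or WT 4 h replicate 1 (0.0580) or 2 (0.0863). The WT 6 h call was lost without WT untreated replicate 1 (0.0732) or 2 (0.0958) or WT 6 h replicate 1 (0.0544) or 2 (0.153). The KO 2 h call was lost without KO untreated replicate 1 (0.0803) or 2 (0.0995) or KO 2 h replicate 1 (0.0526) or 2 (0.176), and the KO 4 h call without KO 4 h replicate 1 (0.0575). Without KO 6 h replicate 2, KO passed at 6 h (3.50, adjusted p = 0.00672), with 1 library left in that group and the spread taken from the others.

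Polymerase summits also became many along Lcp1. The shortened lists held 3 and 6 Lcp1 summits in untreated WT and 4 and 3 in untreated KO. At 2 h they held 47 and 35 in WT and 38 and 46 in KO, at 4 h 42 and 29 in WT and 22 and 17 in KO, and at 6 h 38 and 45 in WT and 23 and 20 in KO. All treated counts exceeded all untreated ones, and all KO counts at 4 h and 6 h lay below all WT counts at those times. Shares of all genes with such separations of counts were not obtained, so both are descriptions. The deposited lists, which differ in length, held 8 to 14 Lcp1 summits untreated (median 11) and 30 to 62 after R837 (median 44.5). In them the separation of KO from WT at 4 h was lost, since KO replicate 1 and WT replicate 2 both had 44. Lcp1 stood between place 27 and 166 among genes by number of summits in untreated libraries and between 3 and 17 in treated ones. On the log2 scale of the count plus 1, the rise was 2.75 ± 0.20 (SE, 12 against 4, limma adjusted p = 7.18e-06), where 7.16% of genes rose and 21.6% fell. All 6 treated groups passed against their untreated group, where 4.66%, 3.63% and 4.13% of genes rose in WT and 3.99%, 3.48% and 3.95% in KO. The KO minus WT difference in summit number was −0.82 ± 0.35 at 4 h (unadjusted p = 0.0434, adjusted p = 0.611) and −0.92 ± 0.35 at 6 h (unadjusted p = 0.0277, adjusted p = 0.283), and neither passed.

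The added summits lay mostly in the downstream part of Lcp1. When the gene was divided into 10 equal parts, the untreated summits inside it lay in the first, the fourth and the fifth only. After R837 every library had at least 1 summit in each part from the fifth to the last, with up to 10 in a part. The best summit lay 45821 to 49640 bp from the 5′ end in the untreated libraries and 361 to 697 bp past the gene end in 7 of 12 treated ones. In KO 6 h replicate 2 the best summit lay 87 bp from the 5′ end and also in the region of Lrrc63. Within 1 kb of an annotated start, Lcp1 had a summit in 1 of 4 untreated libraries, at rank 4894, and in all 12 treated libraries, at ranks 116 to 1072. That start window was 4.21 ± 0.50 higher after R837 (SE, 12 against 4), where 3.45% of 6025 genes rose. Lcp1 entered this limma fit only through the treated libraries, where it is high, so this call is a description. In the end window the change was 3.50 ± 1.26 (adjusted p = 0.0830), which did not pass. It passed without WT 4 h replicate 2 (3.98, adjusted p = 0.0428) or KO 4 h replicate 2 (3.98, adjusted p = 0.0421), and with the replicate number as a block (adjusted p = 0.043).

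**Figure D3:**
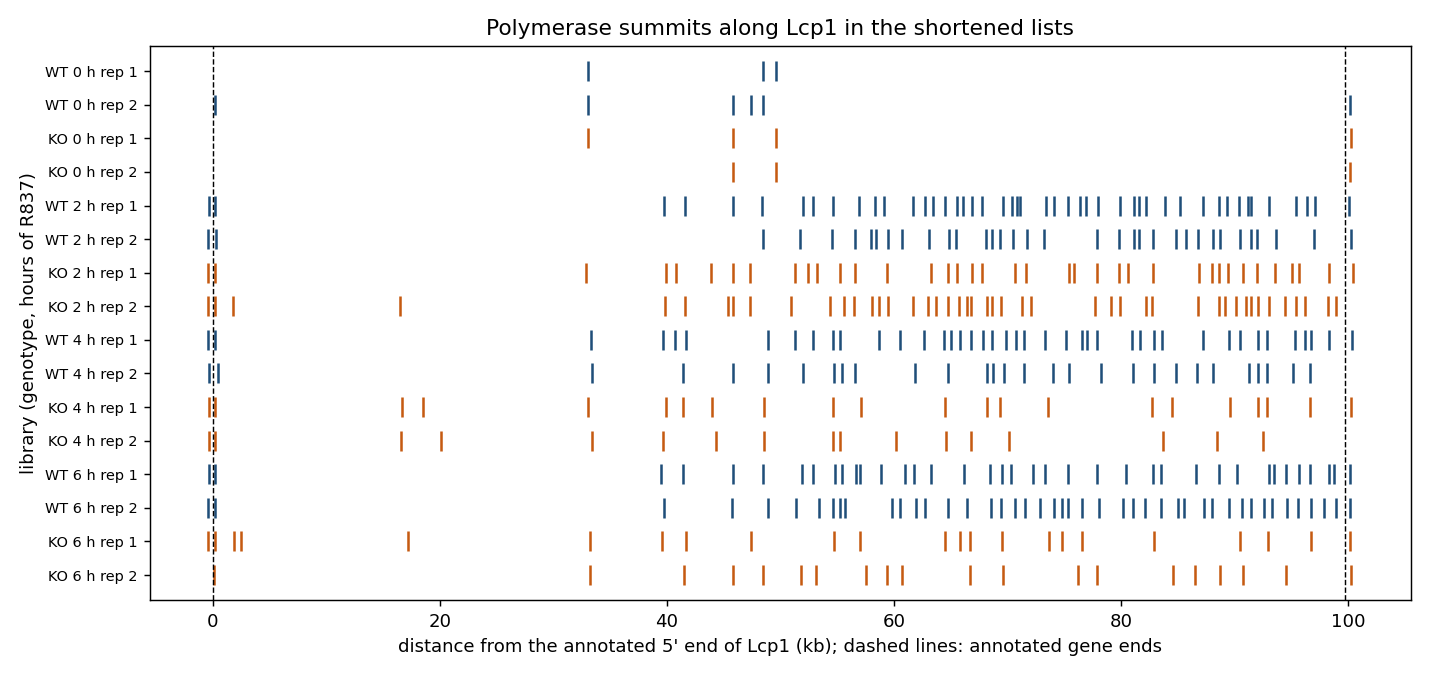
Each tick is a polymerase summit in the shortened list of a library (y axis, genotype and hours of R837), at its distance from the annotated 5′ end of Lcp1 in kb (x axis), with dashed lines at both gene ends. Untreated libraries have 3 to 6 summits and treated ones 17 to 47, most of them in the downstream part of the gene.

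None of the 8 genes differed between KO and WT by the limma test. The counts were 0 of 8 untreated, at 2 h, at 4 h, at 6 h, over the 3 treated times, and for the R837 response in KO against that in WT. The shares of all genes called in these comparisons were 1.37%, 0.0708%, 0.401%, 1.32%, 0.743% and 0.932%. The gene counts behind these shares moved with single libraries: when 1 library was left out, 116 ranged from 75 to 392, 6 from 2 to 56, 34 from 21 to 72, 112 from 56 to 585, 63 from 12 to 286 and 79 from 9 to 350. The highest counts came without WT untreated replicate 1 (untreated, and the response), KO 2 h replicate 2 (2 h), KO 4 h replicate 2 (4 h) and KO 6 h replicate 1 (6 h, and over the 3 times). At an unadjusted p under 0.05 the counts were 0, 0, 1, 0, 1 and 0, with Coro1a the gene in both cases, where 10.6%, 5.16%, 7.09%, 13.2%, 12.2% and 10.8% of all genes had one. By the number of summits the adjusted counts were 0 as well, where 1.52%, 0.814%, 0.92%, 1.94%, 3.01% and 3.1% of all genes were called, and 0, 0, 3, 2, 2 and 0 members had an unadjusted p under 0.05, beside 5.03%, 5.91%, 7.45%, 12.6%, 13.8% and 8.67% of all genes. The KO minus WT difference of Coro1a was −1.90 ± 0.87 at 4 h (adjusted p = 0.689) and −1.15 ± 0.50 over the 3 times (adjusted p = 0.372). Over the 3 times the other KO minus WT differences ranged from −0.38 ± 0.76 for Pfn1 to 0.25 ± 0.42 for Cfl1, and for Lcp1 the value was −0.16 ± 0.45. With errors of this size, equal occupancy is not shown. N4bp1 itself had no summit in the 4 untreated libraries and ranked 957 to 3475 in treated WT and 541 to 1713 in treated KO. The deleted part of the gene is not stated in the labels, so these summits do not check the genotype.

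**Figure D4:**
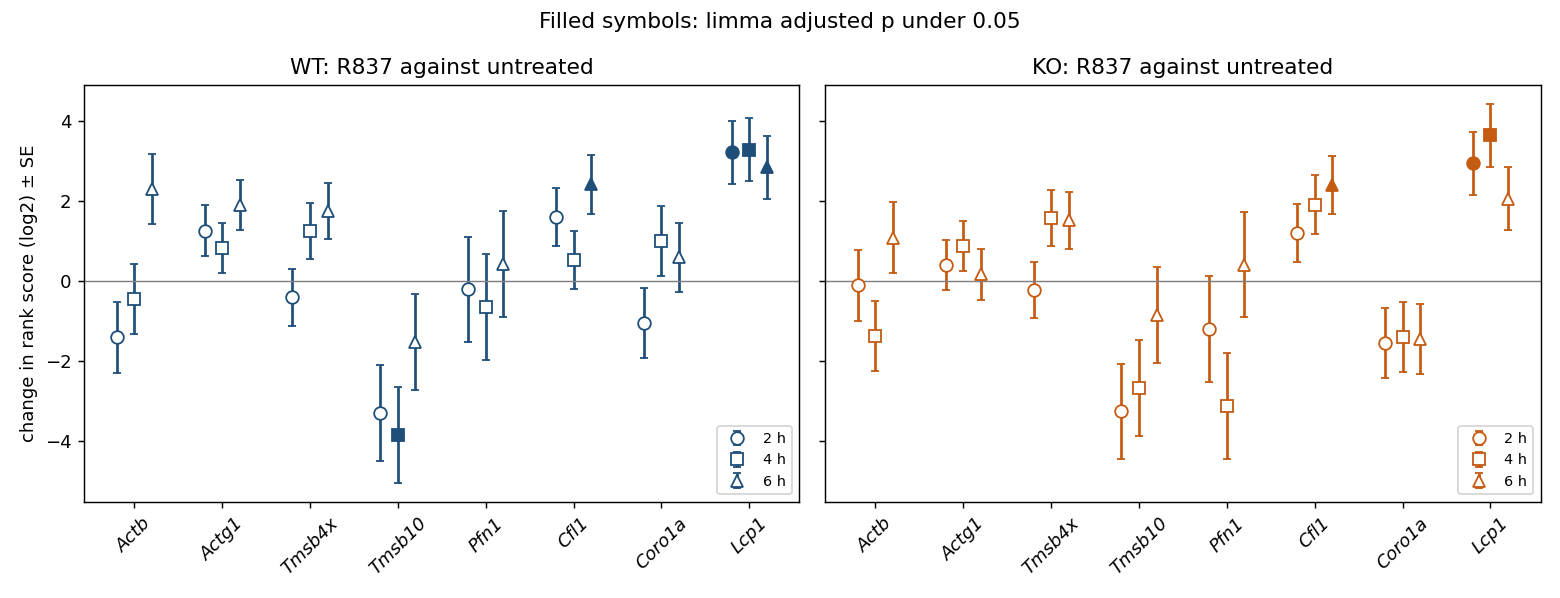
Change in rank score (log2, y axis, ± SE of the limma fit) of the 8 genes (x axis) at 2, 4 and 6 h of R837 against untreated cells of the same genotype, WT on the left and KO on the right, 2 against 2 libraries each. Filled symbols passed at an adjusted p under 0.05: Lcp1 at all 3 WT times and at 2 h and 4 h in KO, Cfl1 at 6 h in both genotypes, and Tmsb10 at 4 h in WT.

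Other actin genes moved in both directions. Of 124 listed genes, 104 had enough summits to be tested with limma; 18 rose (17.3%) and 29 fell (27.9%), beside 5.77% and 29.4% of all genes, and their median change was −0.19 against −0.33. With 1 rank per gene, 79 were tested, 17 rose and 13 fell, where 8.0% of 5226 genes rose and 12% fell. Of the called genes, 2 of the 18 that rose had no summit in any untreated library and 4 of the 29 that fell had none in any treated library, as had 156 of the 489 rises and 413 of the 2488 falls over all genes. Such genes entered the test only through the group where they are high, so their difference is a description. The list was written with earlier results of these data known, so it is a description. The highest rises with a summit in both groups were those of the tropomyosin Tpm4 (4.93 ± 0.29, adjusted p = 1.27e-07) and Capza2, a capping protein subunit (3.87 ± 0.40, adjusted p = 1.68e-05). Rac2, a component of the phagocyte oxidase, had no summit in any untreated library and one in all 12 treated libraries, with a mean rank score of 4.93. The deepest falls were those of the immediate early GTPase Rhob (−5.35 ± 0.36, adjusted p = 3.32e-07), the class I myosin Myo1f (−5.18 ± 0.29, adjusted p = 8.05e-08) and the cofilin phosphatase Ssh1 (−3.63 ± 0.26, adjusted p = 6.97e-07).

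By role, 1 of 8 tested genes of monomer binding and turnover rose and 3 fell, with Cotl1, coactosin, falling by 2.76 (SE 0.35, adjusted p = 7.37e-05). None of 9 Arp2/3 complex genes rose and 3 fell, with Arpc1b going from 4.99 to 2.99 (SE 0.43, adjusted p = 0.00299). Of 18 genes of nucleation promotion, formins and Ena/VASP proteins 4 rose and 4 fell, led by Cyfip1 of the WAVE complex (2.75 ± 0.54, adjusted p = 0.00180). Capping and severing had 1 of 6 rising and 1 falling. Among 11 bundling and crosslinking genes 2 rose, the related Marcksl1 (3.63 ± 0.43, adjusted p = 4.26e-05) and Marcks (3.58 ± 0.40, adjusted p = 2.72e-05), and 3 fell. Tropomyosins and myosins had 2 rising and 6 falling of 15. Of 11 membrane and adhesion linkers 3 rose, led by moesin (Msn, 1.64 ± 0.32, adjusted p = 0.00165), and none fell. Of 4 genes for SRF, its coactivators and smooth muscle targets none rose. The coactivator Mrtfb had a low mean rank score of 0.82 in the 4 untreated libraries, each with a summit, and no summit in the 12 treated ones, which is given as a description.

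**Figure D5:**
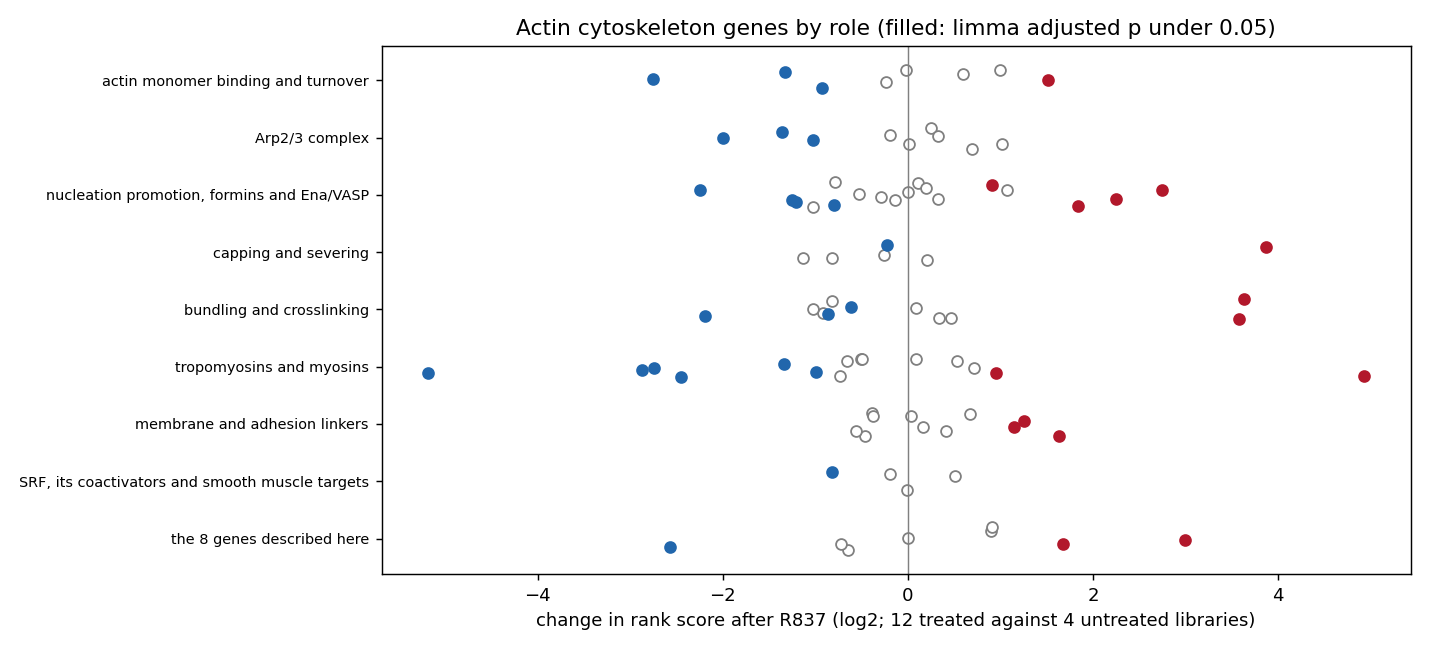
Change in rank score after R837 (log2, x axis, 12 treated against 4 untreated libraries) of 82 other actin genes in 8 roles and of the 8 genes described here (bottom row). Each point is a gene, filled red for a rise and blue for a fall at an adjusted p under 0.05 and open otherwise. Calls of both directions appear in 5 of the 8 roles drawn.

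The genes whose rank scores ran closest to each of the 8 were found by the mean absolute difference over the 16 libraries, among the 1117 genes with a summit in all lists. The 8 genes themselves and genes sharing a best summit with the gene compared were left out. Tmsb10 had no summit in 6 libraries, and Pfn1 and Coro1a had none in 1 each. Genes that also lacked a summit in some libraries were not searched, so closer ones may exist. For Lcp1 they were Mettl9 (0.58) and Igsf6 (0.73), for Cfl1 Rhog (0.83) and Rps18 (0.83), and for Tmsb4x Spi1 (0.62) and Eif4a1 (0.99). For Actb the closest was Zfp36 (1.54), and for Actg1 they were Polg2 (0.68) and Ddx5 (0.74). For Pfn1 they were Hnrnpa2b1 and Cbx3 (both 0.82), for Coro1a Mpeg1 (0.65) and Scand1 (0.68), and for Tmsb10 Bloc1s1 (0.89) and Myo9b (0.95). The 2 genes of a pair could share summits with each other. Hnrnpa2b1 and Cbx3 had the same lowest (3.90) and highest (7.28) rank scores, so they may not be separate cases. Polg2 and Ddx5 had the same highest rank score (7.61), as had Mettl9 and Igsf6 (6.73), so these pairs may not be separate cases either. Likeness of rank is a description of these lists.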

How the data were processed

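Per the labels' protocols, RNA polymerase II ChIP-seq libraries were sequenced on a NextSeq 500 (single end, 75 nt). GSNAP, MACS2 and the GRCm38 build are named per the submitters' processing notes; versions, threshold and control are not given in the sources used here. The deposited lists hold 1 bp summits per library with a −log10 p-value or q-value, without pooling of replicates, and 8394 to 29760 summits. An input sample was not used here.

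Summits were assigned to genes of RefSeq's GRCm38.p6 annotation extended by 1 kb. The fit used limma 3.58.1 (R 4.3.3) on genes present in 2 or more of the 16 shortened lists (8 group means, all 16 libraries, variance trend, Benjamini-Hochberg adjustment, threshold 0.05). A check on simulated data was run. Unlike the real rank scores, the simulated ones held no values of 0, so the check does not cover genes without a summit in some libraries. Alternatives were other extensions, nearest-gene assignment, 1 rank per gene, summit numbers, shorter lists, other filters, compared groups only, a replicate block and leaving out each library. Windows at gene starts and ends and the fit of untreated and 2 h libraries only were added after the data were seen. The genes and lists were chosen with earlier results of these data known. Named genes were the 8 members, the 3 highest rises and 3 deepest falls among other actin genes, the largest called change per role, and the 2 genes most alike to each member. One role group and 1 alike gene are not reported here.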

Additional observations from a re-analysis of the deposited data

How the results depend on the processing

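Of 2958 single values under alternatives, 2721 kept their direction (or a value of 0) and side of the threshold, 141 stayed uncalled but turned direction (27 of them with summit numbers), 61 lost a call, 32 gained one and 3 changed sign with a call: Pfn1 over all times with nearest genes only (1.30) or summit numbers (0.59), and in KO at 2 h with summit numbers (1.16). The pooled count of 3 genes ranged from 2 to 4 when 1 library was left out. In WT at 2 h the count of 1 became 2 with genes in at least 8 lists and with untreated and 2 h libraries only (left-out range 0 to 2). In WT at 4 h the count of 2 became 0 without extension and 1 with nearest genes, 1 rank per gene, lists of 4000 summits, no filter, compared groups only and the replicate block (0 to 2). In WT at 6 h the count of 2 became 3 with the 3 kb extension, 1 rank per gene and no filter, 1 without extension and with summit numbers and 0 with compared groups only (0 to 3). In KO at 2 h the count of 1 became 3 with summit numbers, 2 with genes in at least 8 lists and 0 with compared groups only (0 to 2). In KO the range was 1 to 2 at 4 h, and at 6 h the count of 1 became 2 with nearest genes and 0 with compared groups only (0 to 1). KO against WT stayed at 0 throughout, of 8 tested or, at 2 h with compared groups only, of 7. The 47 other actin genes became 30 with 1 rank per gene (38 to 47). In start windows 2 became 4 at 500 bp (1 to 2). In end windows 1 became 0 at 500 bp and 2 with the replicate block (1 to 3). Over all genes, the calls against untreated under these alternatives ranged in WT from 244 to 1509 at 2 h, 136 to 1317 at 4 h and 0 to 1537 at 6 h. In KO they ranged from 79 to 1197, 283 to 1209 and 200 to 1497. The share of all genes is not given beside each member count, so these member counts are descriptions. The causes were not tested, other than that compared groups only uses fewer libraries.

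Over all genes the 2977 pooled calls became 1045 with 1 rank per gene (418 higher and 627 lower), and 2504 to 3044 when 1 library was left out. With compared groups only, calls against untreated fell from 1392, 1227 and 1450 in WT at 2, 4 and 6 h to 244, 136 and 0, and from 1054, 1098 and 1368 in KO to 79, 283 and 200. Same-numbered libraries showed little shared deviation (correlations −0.11 to 0.18 over 28 group pairs, 1 above 0.1). Such correlations cannot exclude a pairing, which the labels do not state, and the main fit used none. The replicate block gave 2920 pooled calls.

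Depth is unknown. A gene without a summit in a shortened list is not shown to lack polymerase, and reads shared by actin or thymosin copies elsewhere in the genome cannot be told apart here.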

Other observations

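The windows at gene starts and ends also placed the other actin genes, with limma over all genes that had such windows. In the start window 76 were tested, 8 rose and 18 fell, where 3.45% of all genes rose and 28.1% fell, and the median change was −0.23 against −0.36 over 6025 genes. Of the called genes, Rnd3 had no start summit in any untreated library, and Gsn, Ssh2, Mrtfb and Dock8 had none in any treated library. Fmnl1 had a start summit in 3 of 4 untreated and 1 of 12 treated libraries. These genes entered the fit only through the group where they are high, so their difference is a description. The rises included Capza2 (3.60 ± 0.61, adjusted p = 7.99e-04) and the moesin gene Msn (1.60 ± 0.33, adjusted p = 0.00305), and the falls included Rhob (−5.35 ± 0.38, adjusted p = 1.68e-06) and Myo1f (−5.20 ± 0.30, adjusted p = 2.41e-07). In the end window 38 were tested, where 5.35% of all genes rose and 9.31% fell. Wipf1, which encodes a WASP-binding protein, had an end summit in 4 of 4 untreated and 1 of 12 treated libraries. It entered the fit only through the untreated libraries, where it is high, so its change of −0.59 ± 0.16 is a description. Marcksl1 had an end summit in 11 of 12 treated libraries and in none of the 4 untreated ones, which is given as a description.

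Between 10 and 30 kb from the 5′ end of Lcp1, a stretch chosen after its values were seen, the shortened lists held a summit in 4 of 6 treated KO libraries and in none of 6 treated WT or 4 untreated libraries. These summits lay at 16.5 to 20.1 kb, and the best in each library ranked between 5670 and 7915, near the end of the shortened lists. The difference was not tested.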
